A study of Oryza sativa with 12 samples.

Results

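The comparison described here asks what VdAL did to the transcripts of rice leaves that had also received azoxystrobin. Its members are the 6 libraries, of 12 in the series, that carry the treatment label VdAL+ azoxystrobin (3 libraries, called the combination from here on) or azoxystrobin (3 libraries), and the genes were tested on these 6 libraries alone. Both groups therefore received azoxystrobin and differ in VdAL. The other 6 libraries come from leaves given VdAL (3 libraries) or water (3 libraries) and serve as the second place where VdAL was present or absent. All came from TU100, an indica hybrid rice, at an age of 1 month. The labels call the source leaf, while their growth text speaks of aerial tissues from several areas. Plants are not tied to areas there, so an area and a treatment cannot be told apart. Doses, the time between treatment and sampling, and the number of plants behind a library were not stated. Nothing says that the 3 libraries of a group came from separate plants, so the p-values reflect library-to-library spread that may be technical.

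Azoxystrobin is a strobilurin fungicide. It binds cytochrome b in complex III of the mitochondrial respiratory chain and stops electron flow there, in fungi and to some degree in plants, and it is sprayed on rice against fungal leaf diseases. Plant cells can pass electrons around complex III through the alternative oxidase, and strobilurins are known for effects on the crop itself beside those on the pathogen. The labels name VdAL without spelling it out. A secreted protein of the wilt fungus Verticillium dahliae is known as VDAL, and whether the VdAL of these labels is that protein is not stated.

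The files pair no gene ID with a name, and 0 of the 88438 IDs were found in the reference table, so genes appear by ID without a function. The identity of the tissue could not be checked on leaf markers for the same reason. The prefix BGIOSGA is that of the indica rice gene set in Ensembl Plants. Of 33381 IDs with at least 1 read in the 6 libraries, 20325 passed the filter on low counts, and these held 99.6% of the assigned reads in every library. Reads assigned to genes ranged from 6444650 to 7513929 in the combination and from 6897887 to 8072727 in azoxystrobin. In bulk leaf RNA, fewer cells of a type and less RNA per cell cannot be told apart.

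Adding VdAL to azoxystrobin went with higher levels of 131 genes and lower levels of 14 genes. Calls rest on edgeR's quasi-likelihood test with a Benjamini-Hochberg adjusted p under 0.05 over all 20325 genes. The calls made up 0.713% of the genes tested, 0.645% for higher and 0.0689% for lower genes, and 90.3% of the called genes were higher. At an unadjusted p under 0.05 there were 1901 higher genes (9.35%) and 1202 lower genes (5.91%). DESeq2 on the same libraries called 526 genes, 431 higher and 95 lower, which included 125 of the 131 and 13 of the 14. When all 12 libraries shared an estimate of the spread, edgeR called 0 genes (smallest adjusted p 0.0838, with 2574 genes under 0.05 before adjustment). The common biological coefficient of variation was 0.163 in the 6-library fit and 0.188 in the 12-library fit.

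**Figure D1:**
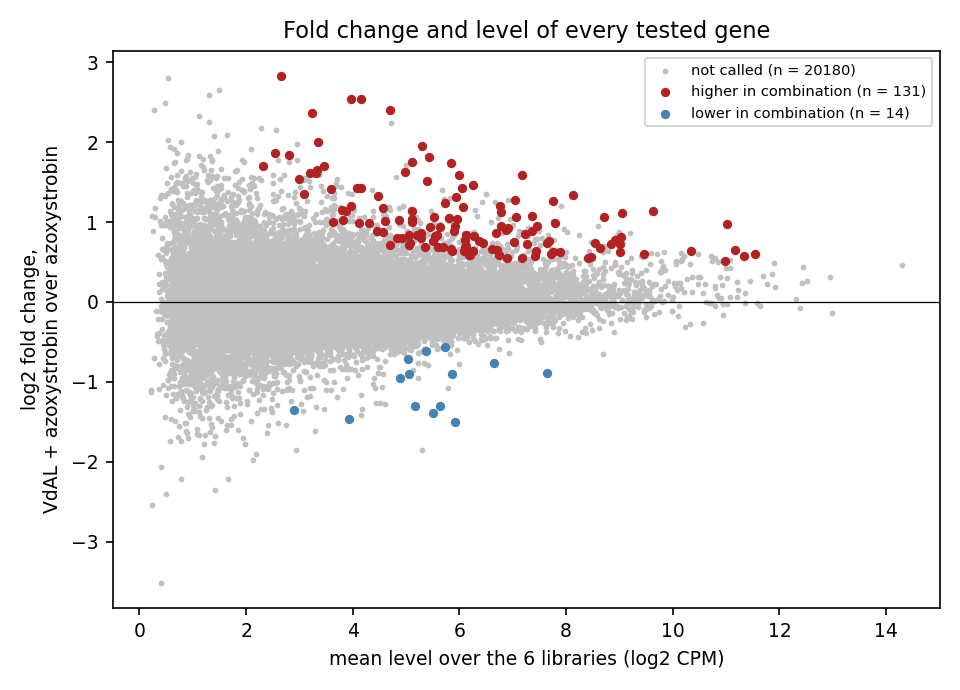
Log2 fold change of the combination over azoxystrobin (vertical axis) against the mean level over the 6 libraries in log2 CPM (horizontal axis), 1 point per tested gene. The 131 genes called higher (red) outnumber the 14 called lower (blue), and grey points are genes that were not called.

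Most of the changes were under 2-fold. The median log2 fold change was 0.92 among the 131 higher genes, or 1.90-fold, with the middle of the list between 0.72 and 1.25 and the extremes at 0.51 and 2.83. Of them 55 were estimated at 2-fold or more and 5 at 4-fold or more, while 7 lay under 1.5-fold. The 95% interval lay wholly above 1.5-fold for 61 of them and wholly above 2-fold for 19. Among the 14 lower genes it was −0.93, with a range of −1.50 to −0.56, and 6 of them were at 2-fold or more. For 8 of the 14 the 95% interval lay wholly beyond 1.5-fold and for 0 beyond 2-fold. Over all tested genes the median log2 fold change was −0.0043.

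Together the 131 higher genes held 3.32% ± 0.328 of the assigned reads in the combination, against 2.09% ± 0.182 in azoxystrobin (SD, n = 3 each). The 14 lower genes held 0.0495% ± 0.00705 in the combination and 0.103% ± 0.0116 in azoxystrobin. These sums describe genes chosen for this difference and are no test of it.

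BGIOSGA001894 was the gene with the smallest p. It stood at 62.8, 112 and 88.9 CPM (counts relative to the library size, after TMM scaling over the 12 libraries) in the 3 combination libraries, against 24.0, 28.3 and 26.5 CPM in the azoxystrobin libraries. Every combination library lay more than 2-fold above every azoxystrobin library. Its log2 fold change was 1.74 (SE 0.18, 95% interval 1.35 to 2.12, edgeR adjusted p = 0.00235), or 3.33-fold.

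BGIOSGA017088 followed, with 348, 495 and 356 CPM in the combination and 148, 180 and 146 CPM in azoxystrobin. The groups did not overlap, and combination replicate 2 was the highest of the 6 libraries for this gene, as for BGIOSGA001894. The log2 fold change was 1.33 (SE 0.14, 95% interval 1.03 to 1.64, edgeR adjusted p = 0.00235).

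Among lower genes BGIOSGA032365 had the smallest p. It stood at 132, 123 and 163 CPM in the combination and at 285, 230 and 258 CPM in azoxystrobin, so that the groups lay apart. Its log2 fold change was −0.89 (SE 0.12, 95% interval −1.16 to −0.63, edgeR adjusted p = 0.0119).

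BGIOSGA021057 showed the larger but less stable decrease. Its levels were 45.1, 22.0 and 26.9 CPM in the combination and 114, 65.6 and 86.8 CPM in azoxystrobin. Replicate 1 was the highest library in both groups, and the groups still did not overlap. The log2 fold change was −1.50 (SE 0.24, 95% interval −2.01 to −0.995, edgeR adjusted p = 0.0145). This gene was not called without combination replicate 2 (adjusted p = 0.0597) or without combination replicate 3 (adjusted p = 0.0697). Nor was it called with robust estimation of the spread (adjusted p = 0.145). With the share of reads aligned to more than 1 place as a covariate it also did not pass (adjusted p = 0.0606). Over 17 alternatives its adjusted p ran from 2.85e-23 to 0.145. The lowest came from the edgeR fit without a filter on low counts. The smallest adjusted p of any gene was 1.93e-34 in that fit, against 0.00235 in the main fit. The other 3 named genes were called in each 6-library alternative, and in the 12-library fit the 4 genes had adjusted p-values of 0.0838 to 0.0944.

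**Figure D2:**
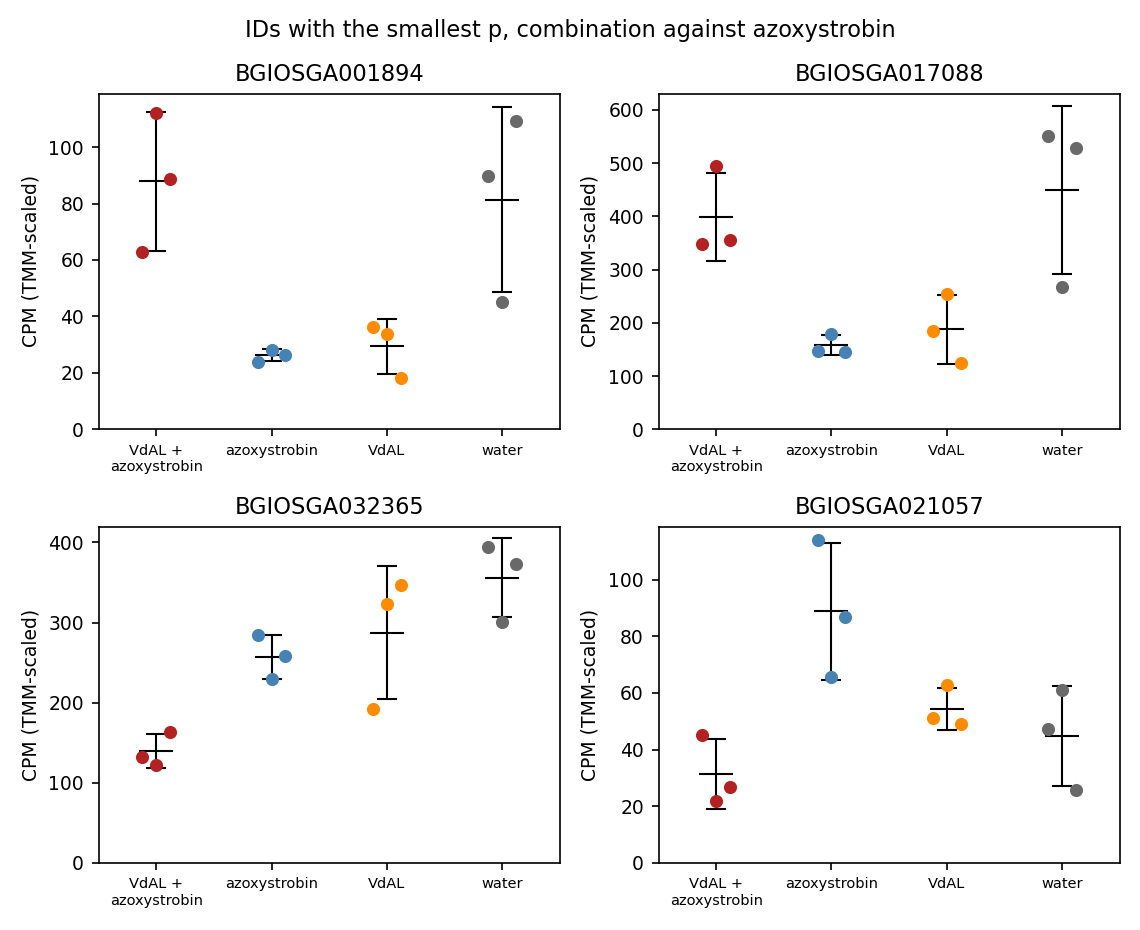
CPM of 4 IDs, the 2 with the smallest p in each direction, 1 panel per ID with its own scale. Each library is 1 point, with the mean and SD of 3 libraries per group. For BGIOSGA001894 and BGIOSGA017088 (upper panels) the combination lies above azoxystrobin, and for BGIOSGA032365 and BGIOSGA021057 (lower panels) it lies below, while the VdAL and water libraries give the levels without azoxystrobin.

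The libraries contributed unequally to the called genes. Combination replicate 2 was the highest of its group in 96 of the 131 higher genes, replicate 3 in 28 and replicate 1 in 7. Among the azoxystrobin libraries, replicate 1 was the lowest in 70 of the 131, replicate 3 in 46 and replicate 2 in 15. In all 131 genes every combination library lay above every azoxystrobin library, and in all 14 lower genes every one lay below, which the calls largely fix. Over all tested genes the libraries were arranged that way in 2166 genes (10.7%) for higher and 2014 genes (9.91%) for lower. Without scaling factors these counts turned to 1376 for higher and 3333 for lower. The within-group coefficient of variation of the 131 genes had a median of 14.7% in the combination and 15.7% in azoxystrobin. The medians over all tested genes were 14.5% and 15.6%. These were not matched for level, as the median level was 5.94 log2 CPM in the 131 genes and 4.04 in all tested genes. Whether the 131 vary like other genes of their level was not tested.

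The number of calls depended on which library was left out. Without azoxystrobin replicate 1 it was 123 (118 higher, 5 lower). Without azoxystrobin replicate 2 the count was 714 (623 higher, 91 lower). It was 62 without azoxystrobin replicate 3 (32 higher, 30 lower), 41 without combination replicate 1 (34 higher, 7 lower), 21 without combination replicate 2 (19 higher, 2 lower) and 50 without combination replicate 3 (48 higher, 2 lower). Of the 145 genes, 144 were also called without azoxystrobin replicate 2 and 20 without combination replicate 2. Across the whole transcriptome libraries of the same group correlated at 0.959 to 0.975 and libraries of different groups at 0.949 to 0.971 (Pearson, over tested genes on the log2 CPM scale). The leading principal component held 33.8% of the variance, with the combination libraries at 16.2 to 36.4 and the azoxystrobin libraries at −42.5 to −7.34, azoxystrobin replicate 2 being the nearest to the combination.

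Some library measures moved with the groups. The 10 most abundant genes held 7.24% to 7.87% of assigned reads in the combination and 6.46% to 6.98% in azoxystrobin, and the TMM factors were 0.933 to 0.988 in the combination and 1.02 to 1.05 in azoxystrobin. Reads that fit more than 1 gene made up 0.682% to 0.769% of recorded reads in the combination and 0.774% to 0.817% in azoxystrobin. None of these 3 pairs of ranges overlapped, each with an exact two-sided permutation p of 0.1, the smallest that 3 against 3 libraries can give (0.233 adjusted over 7 measures). Without scaling factors the median log2 fold change of all genes moved to −0.10 and the calls became 117 higher and 60 lower, so that 66.1% were higher. The share of reads that aligned to more than 1 place was 12.6% to 13.0% in the combination and 12.1% to 15.7% in azoxystrobin (exact permutation p = 0.4). With that share as a covariate 36 genes were called, 20 higher and 16 lower, of which 20 were among the 145. The part these measures have in the result was otherwise not tested.

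Genes with more reads were called more often. When the tested genes were divided into 4 equal classes by mean level, which depends on gene length as well as on abundance, the lowest class gave 1 higher and 0 lower calls, with 252 higher and 155 lower genes at an unadjusted p under 0.05. The following classes gave 18 higher and 2 lower, 29 higher and 5 lower, and 83 higher and 7 lower. The 95% interval lay within 2-fold for 14.2% of genes in the lowest class and for 96.4% in the highest, so in the lowest class a change of 2-fold was mostly not excluded at this depth. The median interval in that class reached 0.998 log2 units to either side. Over all tested genes the interval lay within 2-fold for 14248 genes (70.1%). All 145 calls were BGIOSGA IDs. Of the 1079 tested IDs with the prefix EPlOING 0 were called by edgeR, with a smallest adjusted p of 0.0525. DESeq2 called 12 of them, and 111 (10.3%) had an unadjusted p under 0.05, 41 higher and 70 lower. The same unadjusted share was 15.5% for the BGIOSGA IDs. The median 95% interval reached 0.86 log2 units to either side for EPlOING IDs and 0.42 for BGIOSGA IDs.

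VdAL was also given without azoxystrobin, and those libraries share nothing with the 6 above. There the genes that were higher in the combination than in azoxystrobin mostly had lower estimates in VdAL than in water. In a fit of the 3 VdAL and 3 water libraries alone, 36 of the 131 genes (27.5%) were called lower and 1 was called higher in VdAL, where 1.90% of the 20683 genes tested there were called lower and 0.222% higher. Their median log2 fold change of VdAL over water was −0.61, with the middle of the list between −1.20 and −0.23, while the median of all genes was −0.0084. The estimate was below 0 in 113 of the 131 (86.3%) and in 51.1% of all genes. In 54 of the 131 (41.2%) every VdAL library lay below every water library, against 10.7% of all genes. In 2 of the 131 every VdAL library lay above, against 8.37%.

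The 131 genes are weighted towards high levels, where calls are more frequent. In the highest of the 4 level classes, 20 of the 83 higher genes (24.1%) were called lower in VdAL than in water, against 3.54% of that class. In the class below, it was 13 of 29 (44.8%), against 2.13%. The count of 36 dropped to 12 when water replicate 1 was left out, to 21 for water replicate 3, to 20 for VdAL replicate 1 and to 7 for VdAL replicate 3, and it was 15 with the multiple-alignment share as a covariate. The median of the 131 genes ran from −0.86 to −0.54 over the fits that left out a library.

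**Figure D3:**
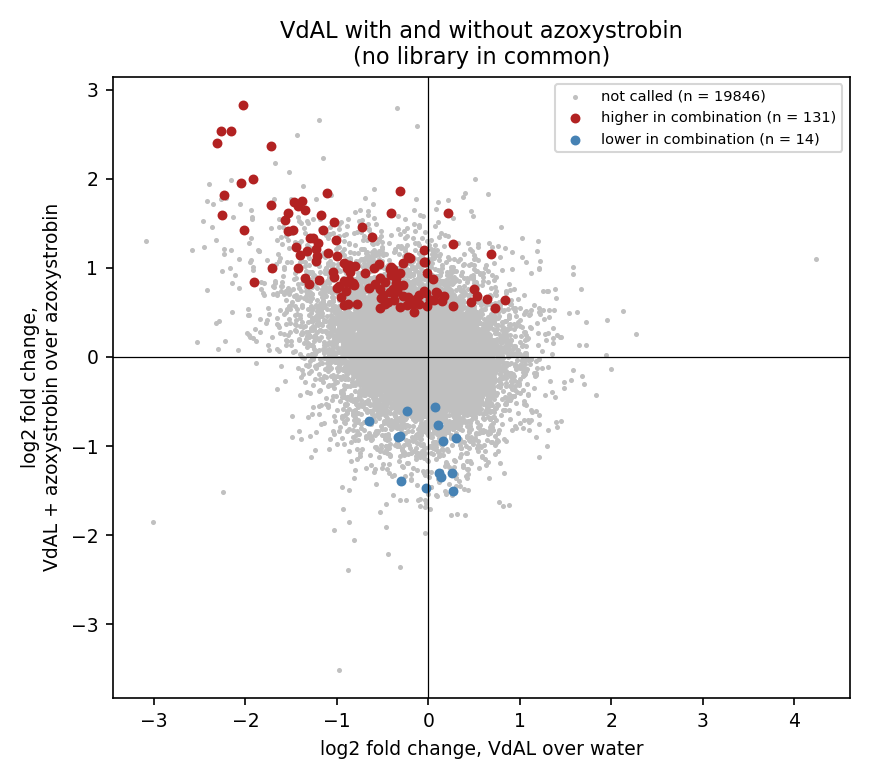
Log2 fold change of the combination over azoxystrobin (vertical axis) against that of VdAL over water (horizontal axis), 1 point per gene tested in both, from 2 fits with no library in common. Of the 131 genes called higher with azoxystrobin present (red), 113 lie left of 0, and the 14 called lower (blue) lie on both sides of 0.

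Read the other way, 394 genes were called lower and 46 higher in VdAL than in water. Those 440 calls became 152 when water replicate 1 was left out, 250 for VdAL replicate 1 and 39 for VdAL replicate 3. In the full fit, 389 of the 394 were also tested in the azoxystrobin-treated leaves. Of these 36 (9.25%) were called higher in the combination than in azoxystrobin, against 0.645% of all genes. They are the same 36 genes as above, so this is no second result. The share was not matched for level, and 180 of the 389 lay in the highest level class, where 83 of 5082 genes were called higher. Their median log2 fold change there was 0.39, and 332 of them (85.3%) had an estimate above 0, as did 49.3% of all genes. In 116 of the 389 (29.8%) the combination libraries all lay above the azoxystrobin libraries, against 10.7% of all genes. The 46 genes called higher in VdAL than in water had a median of 0.12 in the azoxystrobin-treated leaves, and 1 of them was called higher. Over 19991 genes tested in both, the fold changes correlated at −0.30 (Pearson; Spearman −0.27), and 60.4% had opposite signs. Genes are not independent replicates, and this correlation is given as a description.

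For the 14 lower genes the numbers are small. In VdAL against water edgeR called 0 of the 14, and DESeq2 called 1 lower. An unadjusted p under 0.05 was found for 1 of them, on the lower side, where 9.42% of all genes were lower and 4.41% higher at that threshold. In 3 of the 14 (21.4%) every VdAL library lay below every water library, against 10.7% of all genes, and in 0 every one lay above. Whether the 14 genes differ from the 131 in this was not tested. Their median log2 fold change there was 0.09, with 8 estimates above 0 and 6 below. For BGIOSGA032365 the VdAL libraries stood at 192, 323 and 346 CPM and the water libraries at 394, 300 and 373 CPM. The ranges overlap, and the log2 difference of −0.31 had a 95% interval of −0.77 to 0.15. BGIOSGA021057 had 51.3, 62.7 and 49.0 CPM in VdAL and 47.3, 60.9 and 25.9 CPM in water, which overlap too (log2 difference 0.27, 95% interval −0.28 to 0.83).

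Both named higher genes fell in VdAL relative to water. BGIOSGA001894 stood at 36.1, 33.7 and 18.3 CPM in VdAL and 89.6, 45.2 and 109 CPM in water (log2 fold change −1.47, SE 0.32, edgeR adjusted p = 0.0368). BGIOSGA017088 stood at 184, 254 and 125 CPM in VdAL and 551, 268 and 528 CPM in water (log2 −1.26, SE 0.29, edgeR adjusted p = 0.0496). In both genes water replicate 2 was the lowest water library and still lay above every VdAL library.

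The place of water in this picture can only be described, since the azoxystrobin and combination libraries chose the genes. The 131 were chosen for a combination above azoxystrobin and the 14 for a combination below it. In a model of all 12 libraries the median log2 fold change of the 131 genes was −0.75 for azoxystrobin over water and 0.12 for the combination over water, 2 comparisons that share the water libraries. The combination mean lay between the azoxystrobin and water means in 51 of the 131 genes and beyond the water mean in 74, and the water mean was at or below the azoxystrobin mean in 6. The combination mean was the highest of the 4 group means in 78. The mean of azoxystrobin fell inside the range of the VdAL libraries in 99 of the 131 and that of the combination in 13. The choice of the genes shapes these counts, and the matching shares over all genes were not counted. Nothing is therefore read from them about a likeness of azoxystrobin to VdAL. For the 14 lower genes the medians were 0.14 for azoxystrobin over water and −0.87 for the combination over water. The combination mean was the lowest of the 4 group means in all 14, which their choice favours. No share over all genes was counted for this.

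Library by library, the 131 genes had median levels, relative to each gene's mean over the 12 libraries, of 0.37, 0.68 and 0.41 log2 units in the combination. These medians were −0.52, −0.26 and −0.47 in azoxystrobin, −0.13, −0.20 and −0.61 in VdAL, and 0.43, −0.05 and 0.56 in water. The combination libraries lay above all azoxystrobin and VdAL libraries on this measure. Water replicate 2 lay nearer to VdAL replicates 1 and 2 than to the other water libraries. The 14 lower genes had medians of −0.52, −0.81 and −0.73 in the combination, and those of the other 9 libraries ran from −0.10 in VdAL replicate 1 to 0.38 in azoxystrobin replicate 1.

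**Figure D4:**
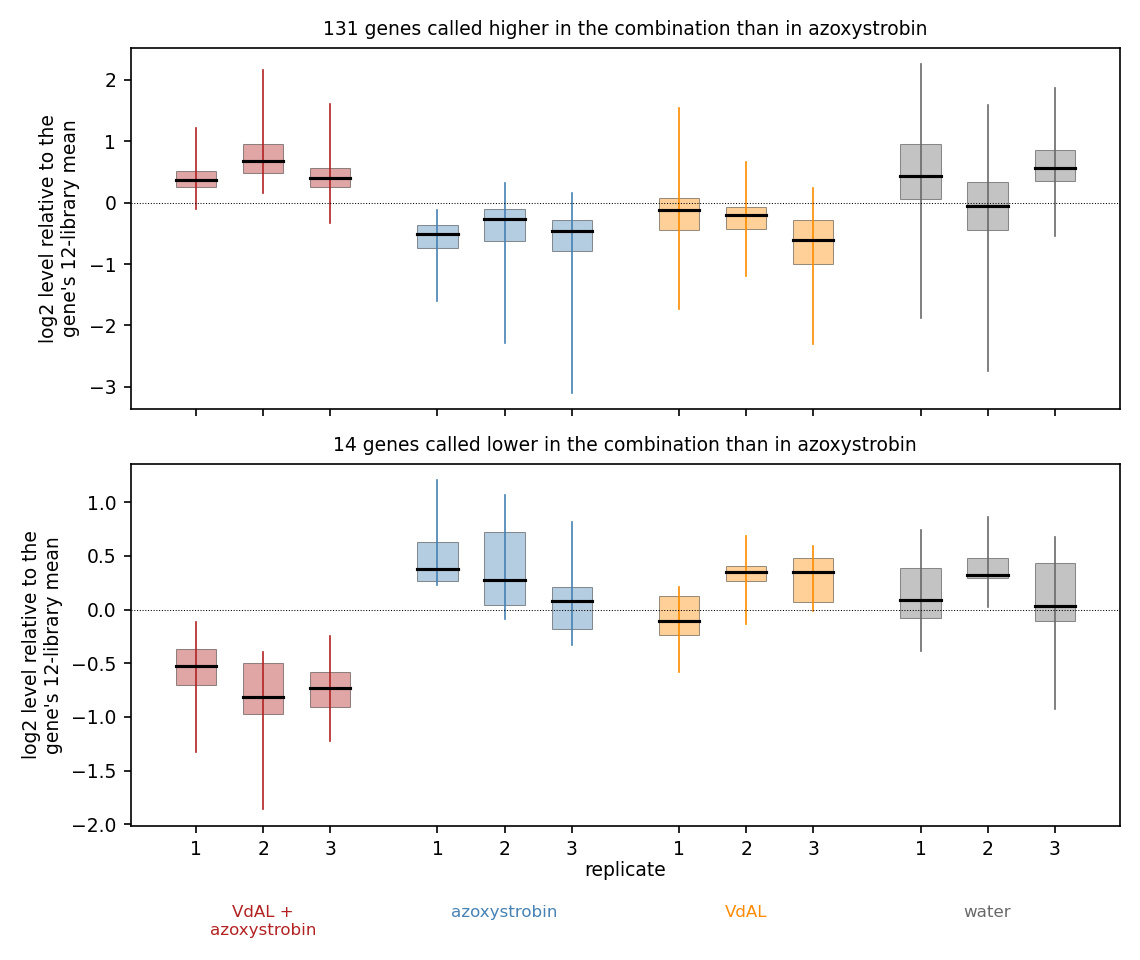
Level of the called genes in each of the 12 libraries, in log2 units relative to each gene's mean over all libraries, with the 131 higher genes above and the 14 lower genes below. Boxes span the middle of the list, the black line is the median and the thin line runs from the lowest to the highest gene. The combination and azoxystrobin libraries chose the genes. VdAL and water did not, and the 131 genes have medians of −0.61 to −0.13 in VdAL and −0.05 to 0.56 in water.

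A direct test compared the VdAL effect on both backgrounds over all 12 libraries. This interaction is the log2 fold change of the combination over azoxystrobin minus that of VdAL over water. It passed the threshold in 812 of 21381 genes (3.80%), 718 positive (3.36%) and 94 negative (0.440%). Of the 131 higher genes 89 were among the positive calls and of the 14 lower genes 6 among the negative ones, but the genes were chosen on libraries that this contrast also uses, so nothing is read from these shares. Without scaling factors 970 genes were called, with the split at 493 positive and 477 negative. That setting moved the median interaction of all genes to −0.19. The 812 calls became 1253 when water replicate 2 was left out and 1242 for VdAL replicate 1, but 442 for azoxystrobin replicate 3, 311 for VdAL replicate 3 and 291 for combination replicate 2.

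Of the IDs with the smallest p in the interaction, BGIOSGA033447 stood at 48.8, 64.5 and 53.7 CPM in the combination and 39.0, 47.8 and 30.7 CPM in azoxystrobin, a log2 difference of 0.50 (95% interval 0.15 to 0.85) that did not pass (edgeR adjusted p = 0.161). In VdAL it stood at 47.8, 40.6 and 35.6 CPM, against 187, 207 and 155 CPM in water. The water libraries stand far above the other 9 libraries, and the interaction was 2.66 (SE 0.24, edgeR adjusted p = 5.9e-05).

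BGIOSGA001968 was called in both tests. It had 42.3, 48.1 and 37.2 CPM in the combination, above the 28.1, 21.8 and 21.2 CPM in azoxystrobin (log2 0.84, SE 0.15, edgeR adjusted p = 0.0304). VdAL libraries held 29.9, 23.8 and 18.2 CPM and water libraries 86.4, 102 and 79.9 CPM, so the combination lay between the single treatments and water without overlap. Its interaction was 2.75 (SE 0.26, edgeR adjusted p = 5.9e-05).

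Both named IDs with a negative interaction were called higher in every treated group than in water. BGIOSGA014122 stood at 280, 251 and 290 CPM in the combination and 285, 260 and 320 CPM in azoxystrobin, which overlap (log2 difference −0.08, 95% interval −0.31 to 0.15). Its VdAL libraries lay at 354, 326 and 325 CPM, against 166, 168 and 146 CPM in water, and the interaction was −1.14 (SE 0.16, edgeR adjusted p = 0.00137). BGIOSGA010848 behaved alike, with 228, 197 and 202 CPM in the combination and 236, 210 and 219 CPM in azoxystrobin (log2 difference −0.09, 95% interval −0.31 to 0.13). It had 247, 294 and 290 CPM in VdAL and 152, 143 and 118 CPM in water (interaction −1.09, SE 0.18, edgeR adjusted p = 0.00237). For both genes a change of more than 1.5-fold between the combination and azoxystrobin lay outside the 95% interval.

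**Figure D5:**
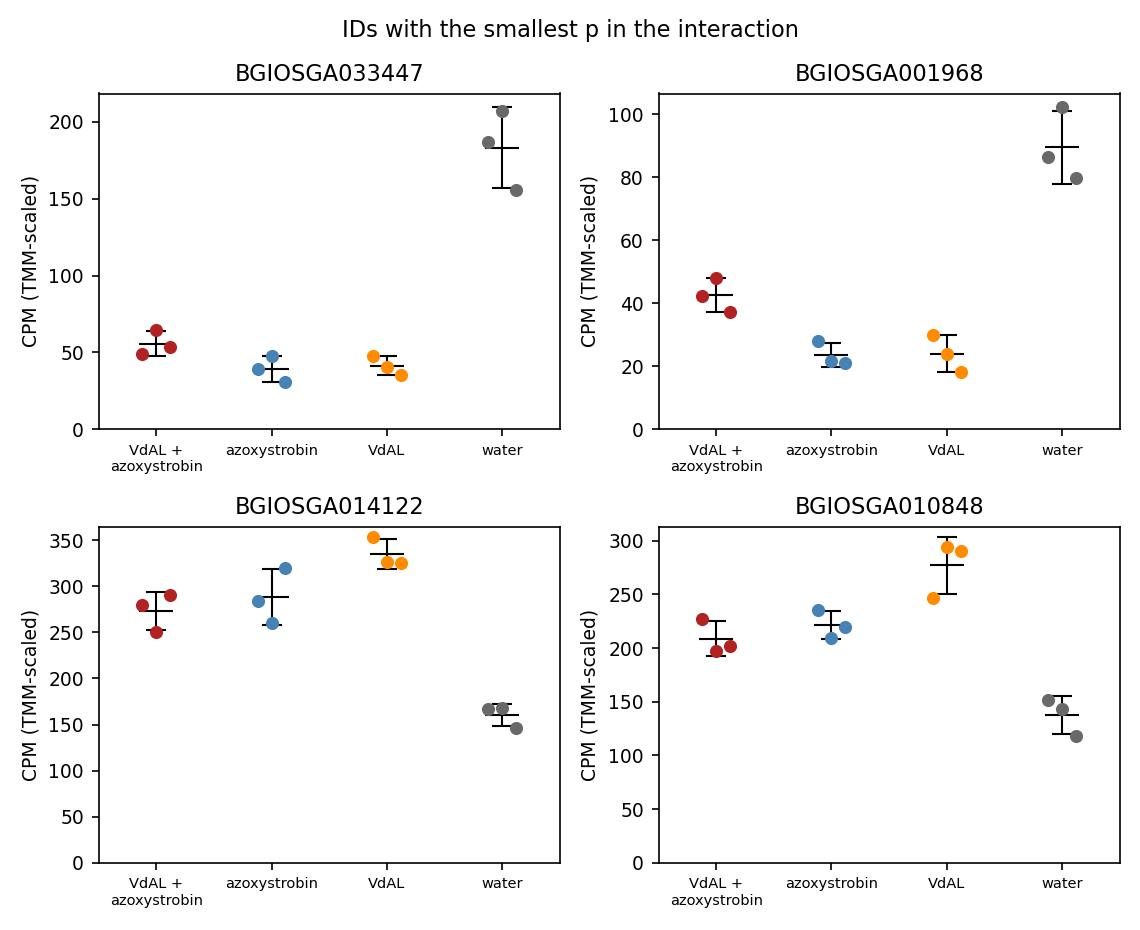
CPM of 4 IDs, the 2 with the smallest p in each direction of the interaction, 1 panel per ID with its own scale. Each library is 1 point, with the mean and SD of 3 libraries per group. In BGIOSGA033447 and BGIOSGA001968 the water libraries are the highest, and in BGIOSGA014122 and BGIOSGA010848 they are the lowest. The combination libraries lie above all azoxystrobin libraries in both upper panels and overlap them in both lower panels.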

How the data were processed

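The authors deposited a table of raw read counts per gene ID for each library. TopHat2 2.1.0, HTSeq 0.6.1 and edgeR 3.16.3 are named in the submitters' processing notes without order or settings, and neither the strand setting nor the annotation is stated. The notes name the pig build Sscrofa10.2, which the rice IDs do not bear out, so no coordinates are given. With the strand setting unknown, how reads from overlapping genes on opposite strands were counted is unknown too, and reads of near-identical genes may be left unassigned. The closing rows of unassigned reads, 60.1% to 61.7% of the recorded reads in the 6 libraries, entered neither library sizes nor tests. Most of these reads fell in no annotated gene, 45.3% to 47.5% of the recorded reads. That is more than the 38.3% to 39.9% assigned to genes, and the reason was not tested.

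Counts were analysed in R 4.3.3 with edgeR 4.0.16, using filterByExpr (minimum count 10), TMM factors, estimateDisp, glmQLFit and glmQLFTest, on the 6 libraries alone. P-values are two-sided. The same fit was made for VdAL and water, and a group-means model on 12 libraries gave the interaction. The alternatives included DESeq2 1.42.0 and voom in limma 3.58.1. The procedure was tested on simulated data. Library pairs within the combination and within azoxystrobin had a chi-square per degree of freedom of at least 4.32. None of these pairs was therefore a duplicate within sampling noise. Pairs within VdAL, within water and between groups are not covered by this check. The comparison, gene lists and tests were chosen with earlier results of these data known. Lists by gene name had 0 members that could be matched. IDs named are the 2 with the smallest p per direction among called genes, in the comparison and in the interaction.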

Additional observations from a re-analysis of the deposited data

Results flagged for a closer look

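The log2 fold change between leaves with and without VdAL differed between the azoxystrobin and water backgrounds in 812 genes by the interaction test over 12 libraries (edgeR's quasi-likelihood test, adjusted p under 0.05). Among the IDs named above the interaction was 3.21 for BGIOSGA001894 (adjusted p = 0.000729) and 2.60 for BGIOSGA017088 (adjusted p = 0.00126). In the 6-library fits both were called higher with VdAL where azoxystrobin was present and lower with VdAL where it was absent. In the 12-library model the combination against azoxystrobin did not pass for either (edgeR adjusted p = 0.0838 for both). The interaction was −1.77 for BGIOSGA021057 (adjusted p = 0.0195). These 3 IDs were chosen on libraries that the interaction uses too. The remaining IDs were chosen by the interaction itself, which was 2.66 for BGIOSGA033447, 2.75 for BGIOSGA001968, −1.14 for BGIOSGA014122 and −1.09 for BGIOSGA010848. BGIOSGA032365 did not pass (adjusted p = 0.236).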

How the results depend on the processing

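The count of genes called between the combination and azoxystrobin, 145, was 526 with DESeq2, 252 with voom, 1161 without a filter on low counts, 393 with the replicate block, 36 with the multiple-alignment share of reads as a covariate and 0 with all 12 libraries in the fit. Leaving out single libraries gave 21 to 714. RLE or upper-quartile factors, no scaling factors, a stricter filter and robust estimation gave 103 to 188. The 188 calls of robust estimation held 115 of the 145, and the 177 without scaling factors held 125. Counts from fits without a filter on low counts should be read apart from the others. For the combination against azoxystrobin that fit's smallest adjusted p was 1.93e-34, against 0.00235 in the main fit (edgeR). Genes whose combination libraries lay all above the azoxystrobin libraries numbered 1376 without scaling factors, and those all below 3333. For VdAL against water the count of 440 was 869 with DESeq2, 1165 without a filter, 247 with the replicate block, 249 with the covariate and 39 to 444 without single libraries. Of the 131 higher genes, 36 were called lower in VdAL than in water. That number was 65 without a filter, 19 with the replicate block, 15 with the covariate and 7 to 52 without single libraries, alternatives chosen after seeing the data. The interaction count of 812 was 1348 with DESeq2, 1752 without a filter, 539 with the covariate and 291 to 1253 without single libraries. No named ID changed direction under the alternatives run. Of the 4 named between the combination and azoxystrobin, BGIOSGA021057 was called under 12 of 17 alternatives and each of the other 3 under 16. The cause of these shifts was not tested. Replicate numbers were not treated as pairs outside the replicate block. Deviations of same-numbered libraries correlated at −0.041 to 0.051 between the combination and azoxystrobin. The correlations ran from −0.154 to −0.023 between VdAL and water, and from −0.205 to 0.104 over all pairs of groups. With so few libraries these values cannot show whether the libraries were paired. The 393 genes called with the block included all 145. Where a fit leaves 2 libraries in a group, these are assumed to vary like the other group. Depth limits the lowest of the 4 level classes, as given above.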
